A study of Mus musculus with 22 samples.

Results

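The 9 genes described here were Myrf, Dab2, Agbl2, Snai1, Mep1b, Adamts14, Lck, Lgals9 and Prom1. They were found by symbol among 37991 genes counted in the Tet1 cross and were all present among the 37620 genes counted in the MF1 cross. They were chosen from measured values: in sorted germ cells at E14.5 the difference between Tet1-KO and Tet1-WT was not the same in females and males. The E14.5 values below are therefore a description without a test. Tests were kept to the earlier stages, whose levels the choice did not compare. The fit behind the E14.5 values held all libraries of the Tet1 cross, so the earlier libraries shared in its scaling, filter and spread.

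Primordial germ cells, or PGCs, from which the gametes derive, were sorted from mouse embryos at E10.5, E12.5 and E14.5. Tet1-KO and Tet1-WT embryos came from crosses of Tet1-heterozygous parents that also carried the GOF18∆PE-EGFP transgene, a green reporter driven by Pou5f1 regulatory sequence, so every group of this cross shares the reporter. The 10 groups were Tet1-KO and Tet1-WT at E10.5, with the sexes not separated, and Tet1-KO and Tet1-WT females and males at E12.5 and at E14.5. An 11th group held wild-type E10.5 PGCs of MF1 mothers and GOF18∆PE-EGFP fathers. Each group had 2 libraries of polyadenylated RNA. In the Tet1 cross each library pooled the sorted cells of several embryos. The labels name neither the Tet1 allele nor the part of the gene it removes. Nothing beyond the pools says that libraries of a group were collected separately, so p-values measure the spread between these libraries.

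The TET1 protein oxidises 5-methylcytosine, a step towards the loss of methylation from promoters. PGCs lose most of their DNA methylation while they migrate to and settle in the gonad. Female germ cells then enter meiosis, whereas male germ cells stop dividing and rest until after birth. The genes in the set do not form a pathway, and their products range from transcription factors and a kinase to proteases, a lectin and a tubulin enzyme.

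Total counts per library ranged from 9616436 to 25899505 in the Tet1 cross and were 59415040 and 66924911 in the MF1 cross. Levels are CPM, the counts scaled to a common library total with TMM factors. Tet1 itself was below both Tet1-WT libraries in each Tet1-KO library of the same sex at E12.5 and E14.5. In CPM it stood at 53.1 and 68.9 against 179 and 226 in E12.5 females and at 79.3 and 84.4 against 178 and 309 in E12.5 males. At E14.5 it was 21 and 25.8 against 35.2 and 49.2 in females and 99.5 and 79.9 against 218 and 155 in males. At E10.5 the groups overlapped, with 44.5 and 102 CPM under the label Tet1-KO and 134 and 76.8 CPM under Tet1-WT, so directions drawn at E10.5 rest on the labels. The germ cell label was checked with 10 markers (Ddx4, Dazl, Dppa3, Pou5f1, Kit, Mael, Dnd1, Nanos3, Sox2 and Prdm1), whose summed level was 1110 to 10900 CPM over the 22 libraries with at most 1 of them at 0 in a library. The lowest sums, 1340 and 1110 CPM, were in E10.5 Tet1-WT. In these libraries the mesenchyme genes named below summed to more, 2120 and 2620 CPM.

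Promoter sequence was a feature that the choice of genes did not use. RefSeq promoters on GRCm38.p6 were used for 7 of the 9 genes, with 11 start sites among them, and none was used for Myrf and Mep1b. The selection of member promoters left out a chromosome by rule, and that rule was not applied to all promoters. In the 250 bases before the start, the median over 32851 mouse promoters was 6 CpG dinucleotides, with quartiles at 2 and 16. Adamts14 had 35 CpG and Snai1 27, more than in 97% and 91.4% of all promoters. Lgals9 had 3, and the starts of Lck had 3 and 1. Dab2 had a start with 2 CpG and another with 17, Agbl2 starts with 8 and 16, and Prom1 starts with 3 and 9. The genes thus covered both CpG-poor and CpG-rich promoters, with 4 of the 11 starts at or above the upper quartile and 2 at or below the lower. The sequences below show the 2 windows richest in CpG, the CpG-poor Lgals9 window and the pair of unlike Dab2 starts, with every CpG, the dinucleotide that TET enzymes and DNA methyltransferases act on, in capitals. Adamts14 lies on the minus strand at chr10:61273420-61273669, Snai1 on the plus strand at chr2:167537945-167538194, Lgals9 on the minus strand at chr11:78984925-78985174, and the Dab2 windows on the plus strand at chr15:6299539-6299788 and chr15:6386498-6386747.
Adamts14: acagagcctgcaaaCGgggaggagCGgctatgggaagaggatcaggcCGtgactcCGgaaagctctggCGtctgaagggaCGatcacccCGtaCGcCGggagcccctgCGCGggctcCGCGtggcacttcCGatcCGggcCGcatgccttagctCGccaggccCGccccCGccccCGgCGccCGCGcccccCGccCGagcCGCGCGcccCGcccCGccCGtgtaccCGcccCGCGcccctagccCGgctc
Snai1: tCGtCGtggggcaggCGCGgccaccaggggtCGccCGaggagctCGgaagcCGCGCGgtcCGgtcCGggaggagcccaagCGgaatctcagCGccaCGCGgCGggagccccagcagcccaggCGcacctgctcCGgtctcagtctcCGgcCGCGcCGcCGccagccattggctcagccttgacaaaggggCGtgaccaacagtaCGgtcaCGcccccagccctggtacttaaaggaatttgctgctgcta
Lgals9: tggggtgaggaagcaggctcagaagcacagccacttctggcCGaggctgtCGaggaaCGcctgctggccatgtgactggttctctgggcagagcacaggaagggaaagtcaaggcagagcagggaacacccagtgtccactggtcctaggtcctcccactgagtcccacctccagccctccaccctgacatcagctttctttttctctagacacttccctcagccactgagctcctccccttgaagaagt
Dab2 upstream start: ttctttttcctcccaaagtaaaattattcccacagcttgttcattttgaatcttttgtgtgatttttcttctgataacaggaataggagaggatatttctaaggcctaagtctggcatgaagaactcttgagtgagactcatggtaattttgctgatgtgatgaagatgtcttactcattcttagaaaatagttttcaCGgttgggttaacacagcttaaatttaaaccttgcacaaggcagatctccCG
Dab2 downstream start: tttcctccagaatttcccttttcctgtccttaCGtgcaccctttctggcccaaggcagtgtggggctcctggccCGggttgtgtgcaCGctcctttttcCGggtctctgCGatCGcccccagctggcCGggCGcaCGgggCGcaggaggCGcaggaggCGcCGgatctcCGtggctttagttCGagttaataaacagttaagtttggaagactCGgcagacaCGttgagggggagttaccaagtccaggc
Letter matches on either strand were also counted in these windows. CAGGTG, an E-box that Snail proteins bind, was present in 3 of the 11 windows (Snai1, the Lck start with 3 CpG and the Prom1 start with 9) and in 17.2% of all promoters. GGGCGG, a GC box, was present in 4 of the 11 (Agbl2, Adamts14, Lck and Prom1) and in 32.7% of all promoters. TATAAA and CACGTG were in none of the 11 windows and in 12.4% and 6.02% of all promoters. A match describes letters only, and none of these values bears on binding or on methylation, which were not measured here.

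At E14.5 the 9 genes fell into 3 patterns. Myrf, Dab2 and Agbl2 were present in Tet1-WT females and lower in Tet1-KO females, with no drop in Tet1-KO males. Snai1, Mep1b, Adamts14, Lck and Lgals9 were close to absent in Tet1-WT females and higher in Tet1-KO females, whereas Tet1-KO males were lower or overlapped with Tet1-WT males. Prom1 was high in females of both genotypes and was not counted at all in Tet1-KO males. A gene was called where edgeR's quasi-likelihood test gave an adjusted p under 0.05. Over all 17567 genes tested, 6.65% were called between Tet1-KO and Tet1-WT in females, 0.102% in males and 1.43% for the difference between the sexes. The 9 genes were picked among the 251 called for that difference, so their own calls are not given. In these bulk libraries fewer cells of a kind and less RNA per cell cannot be told apart.

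**Figure D1:**
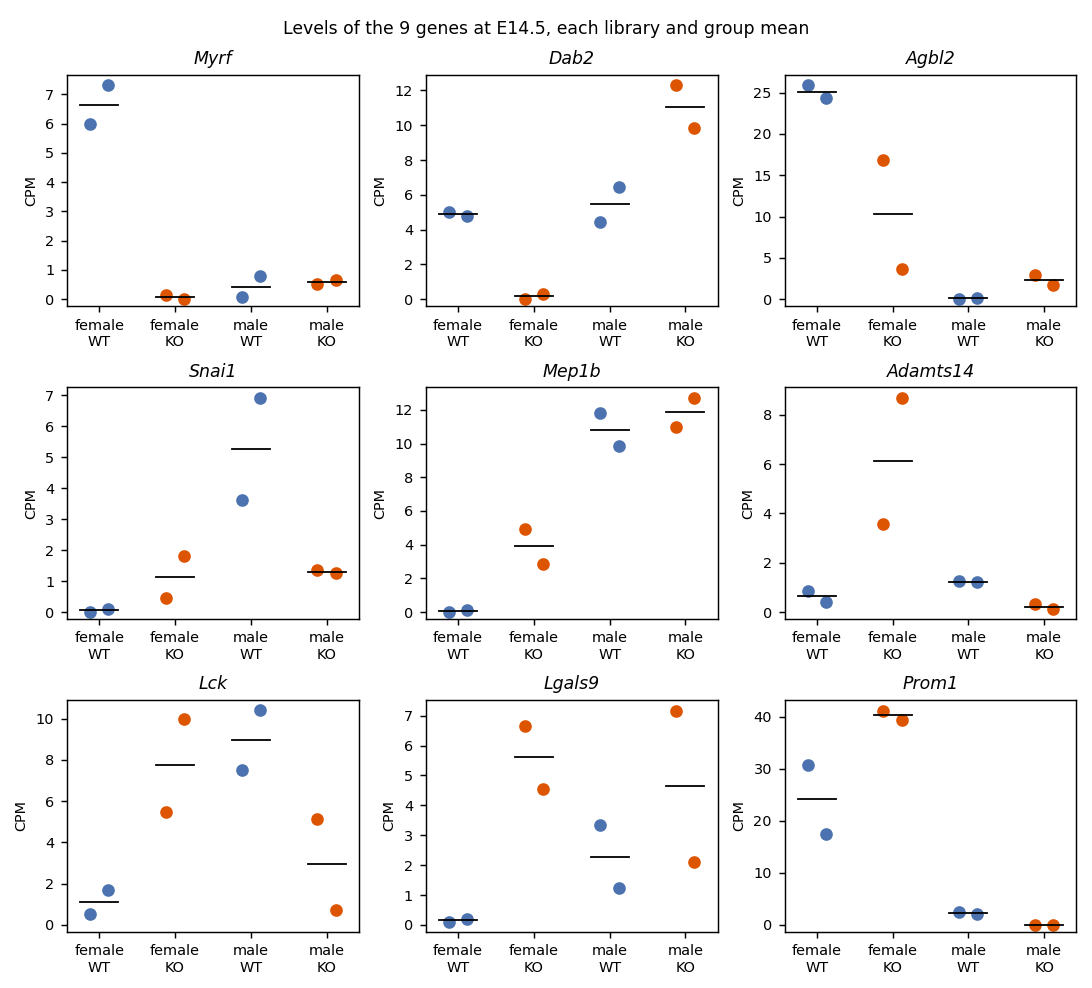
CPM of each of the 9 genes at E14.5, on a linear axis for each gene, with 1 point per library, black bars at the group mean of 2 libraries, Tet1-WT in blue and Tet1-KO in orange. Myrf and Dab2 sit near 0 only in Tet1-KO females (0 to 0.132 and 0 to 0.315 CPM) among the female groups, and Prom1 is at 0 in both Tet1-KO male libraries.

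Myrf (ENSMUSG00000036098) encodes a membrane-tethered transcription factor that cuts itself free and is best known from myelin-forming cells. At E14.5 it stood at 5.99 and 7.31 CPM in Tet1-WT females, at 0.132 and 0 CPM in Tet1-KO females, at 0.0594 and 0.799 CPM in Tet1-WT males and at 0.516 and 0.668 CPM in Tet1-KO males. Both Tet1-WT female libraries lay above the 6 others, and the male genotypes overlapped. In counts this was 188 reads over the Tet1-WT female pair and 2 over the Tet1-KO female pair, a 120-fold ratio with a 95% counting interval of 32.8 to 998. Such intervals cover counting error only, because amplified reads are not independent molecules.

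Dab2 (ENSMUSG00000022150) encodes an endocytic adaptor that links receptors to clathrin. It was at 5.03 and 4.77 CPM in Tet1-WT females and at 0 and 0.315 CPM in Tet1-KO females. In males Tet1-WT libraries held 4.46 and 6.47 CPM and Tet1-KO libraries 12.3 and 9.83 CPM. The genotypes did not overlap in either sex, and the direction was opposite. The fitted log2 difference was -4.70 (SE 0.72) in females and 1.01 (SE 0.48) in males. Without Tet1-KO female library b, the only one of that pair with a Dab2 read, the fitted female value was -9.38, which rests on an empty group.

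Agbl2 (ENSMUSG00000040812) encodes a cytosolic carboxypeptidase that trims glutamate from tubulin tails. It was at 25.9 and 24.3 CPM in Tet1-WT females, 16.9 and 3.69 CPM in Tet1-KO females, 0.0594 and 0.160 CPM in Tet1-WT males and 2.97 and 1.76 CPM in Tet1-KO males. Tet1-KO libraries lay between the Tet1-WT values of the sexes: below Tet1-WT in females and above Tet1-WT in males. The log2 difference was -1.29 (SE 0.83) in females and 4.28 (SE 1.02) in males, and the spread within Tet1-KO females was wide, since the value was -2.70 without library a and -0.52 without library b. In the same libraries 17 meiotic prophase genes, such as Sycp3, Sycp1 and Stra8, summed to 14400 and 11900 CPM in Tet1-WT females, 5700 and 4420 CPM in Tet1-KO females and 1300 to 1860 CPM in the 4 male libraries. The part of these genes in the Agbl2 values was not tested.

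Snai1 (ENSMUSG00000042821) encodes a zinc-finger repressor known for switching off E-cadherin. Tet1-WT females held 0 and 0.106 CPM and Tet1-KO females 0.462 and 1.8 CPM. Tet1-WT males held 3.62 and 6.91 CPM and Tet1-KO males 1.35 and 1.27 CPM. The genotypes did not overlap in either sex, with Tet1-KO higher in females and lower in males. The female pair rests on 1 read in Tet1-WT against 47 in Tet1-KO, a ratio of 36.8 (95% counting interval 6.29 to 1480), and the male log2 difference was -2.00 (SE 0.83).

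Mep1b (ENSMUSG00000024313) encodes meprin beta, a membrane metalloprotease of the astacin family. It was at 0 and 0.106 CPM in Tet1-WT females and at 4.95 and 2.88 CPM in Tet1-KO females, or 1 read against 139, a ratio of 109 (95% counting interval 19.2 to 4330). The males held 11.8 and 9.83 CPM with Tet1-WT, 11 and 12.7 CPM with Tet1-KO, and those 4 libraries overlapped. The Tet1-KO female libraries lay above Tet1-WT females and below every male library.

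Adamts14 (ENSMUSG00000059901) encodes a secreted protease that trims the ends of procollagen. It was at 0.856 and 0.424 CPM in Tet1-WT females and at 3.56 and 8.68 CPM in Tet1-KO females, a log2 difference of 3.19 (SE 0.66), or 2.45 to 3.85 leaving out a library. Tet1-WT males held 1.25 and 1.2 CPM and Tet1-KO males 0.323 and 0.121 CPM, a log2 difference of -2.43 (SE 0.74), or -3.27 to -1.92 leaving out a library. Neither sex showed overlap, and the Tet1-KO male pair rests on 7 reads.

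Lck (ENSMUSG00000000409) encodes a SRC-family kinase known from T cells. It was at 0.554 and 1.70 CPM in Tet1-WT females and at 5.47 and 9.99 CPM in Tet1-KO females, a log2 difference of 2.92 (SE 0.70) that was 2.20 without Tet1-WT library 1 and 3.79 without library 2. Tet1-WT males held 7.49 and 10.4 CPM and Tet1-KO males 5.16 and 0.728 CPM. Those male groups did not overlap, but their log2 difference of -1.61 (SE 0.61) was -3.63 without Tet1-KO library a and -0.82 without library b.

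Lgals9 (ENSMUSG00000001123) encodes galectin-9, a lectin that binds sugars on the cell surface. It was at 0.101 and 0.212 CPM in Tet1-WT females, which is 2 reads in each library, and at 6.66 and 4.54 CPM in Tet1-KO females, a log2 difference of 5.25 (SE 0.74). The male libraries overlapped, with 3.33 and 1.24 CPM for Tet1-WT beside 7.16 and 2.12 CPM for Tet1-KO. Their log2 difference of 1.04 (SE 0.52) moved between -0.10 and 1.88 when a male library was left out. Unlike Dab2, Snai1, Adamts14 and Lck, Lgals9 thus differed between the sexes in size and not clearly in direction.

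Prom1 (ENSMUSG00000029086) encodes prominin-1, a protein of membrane protrusions often used as a stem cell marker. It was at 30.8 and 17.5 CPM in Tet1-WT females and at 41.1 and 39.4 CPM in Tet1-KO females, a log2 difference of 0.73 (SE 0.29) that was 1.22 without Tet1-WT library 1 and 0.39 without library 2. In males it was at 2.44 and 2.12 CPM in Tet1-WT, from 94 reads, and no read was counted in either Tet1-KO library. With 3 counts taken per library as the limit that a count of 0 allows, Prom1 was at least 12.1-fold lower in Tet1-KO males than in Tet1-WT males and at least 214-fold lower than in Tet1-KO females.

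For the 5 members with more than 3 reads in every E14.5 group, the fitted difference of the effects, male minus female, was 5.71 (SE 0.88) for Dab2, 5.57 (SE 1.32) for Agbl2, -5.62 (SE 0.98) for Adamts14, -4.53 (SE 0.93) for Lck and -4.21 (SE 0.92) for Lgals9 on the log2 scale. These values chose the genes and support nothing further. Of the 224 called genes that reached 5 CPM in a group, 15 had a log2 difference beyond 4 in either direction, and the 9 genes were among those. Among markers of neighbouring cells at E14.5, the 12 mesenchyme genes (Nr2f2, Pdgfra, Col1a1, Col1a2, Col3a1, Dcn, Tcf21, Lum, Postn, Fbln1, Meis1 and Mfap4) summed to between 76.4 and 138 CPM in all 8 libraries, although 2 of the 12, Col1a1 and Dcn, were called lower in Tet1-KO females (log2 -2.17 and -3.64). The 9 macrophage genes were at low levels but differed like Dab2, without overlap and in opposite directions: they summed to 16.3 and 14.6 CPM in Tet1-WT females, 6.79 and 10.8 CPM in Tet1-KO females, 3.21 and 6.23 CPM in Tet1-WT males and 18.1 and 9.23 CPM in Tet1-KO males. Of the 9, Csf1r was called lower in Tet1-KO females and higher in the difference between the sexes. Although the mesenchyme sums were alike, the median log2 difference of the 12 genes was -1.55 in females, beside -0.03 over all genes. In males the median was 0.06, beside 0.02, and for the difference between the sexes 1.92, beside 0.11. The part of mesenchyme or macrophage RNA in the values of the 9 members was not tested.

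Other markers differed between the E14.5 groups beside the 9 genes. In Tet1-KO females 6 of the 10 germ cell markers were called higher, such as Dnd1 (log2 2.05, SE 0.32), Nanos3 (1.75, SE 0.35), Pou5f1 (1.55, SE 0.29) and Dppa3 (1.27, SE 0.26), and none was called in males. The summed level of the list went the other way, from 6230 and 5830 CPM in Tet1-WT females to 4940 and 5130 CPM in Tet1-KO females, and its most abundant gene in Tet1-WT females, Dazl, had a mean of 3490 CPM there and 1670 CPM in Tet1-KO (log2 -1.06, SE 0.40, not called). Of the 17 meiotic prophase genes 10 were called lower in Tet1-KO females, with a median log2 difference of -1.74 over the list beside -0.03 over all genes, and none was called in males. Genes of testis supporting cells, 9 in all, summed to 37.4 and 48.4 CPM in Tet1-WT males and to 118 and 96.5 CPM in Tet1-KO males. In females they summed to 13.8 and 9.12 CPM and to 19.1 and 16.9 CPM in that order, though with a median log2 difference of -1.16. Neither sex overlapped, and none was called. Genes of ovary supporting cells, 8 in all, summed to 8.96 and 5.09 CPM in Tet1-WT females and 3.03 and 2.29 CPM in Tet1-KO females. Their median log2 difference was -1.98, none was called, and their sums overlapped in males. Those of coelomic and mesonephric epithelium summed to 36.9 and 59.7 CPM in Tet1-WT females against 87.2 and 168 CPM in Tet1-KO females, and to 356 and 278 CPM in Tet1-WT males against 492 and 536 CPM in Tet1-KO males. Of that list Cdh1 was called higher and Krt8 lower in Tet1-KO females, and none was called in males. The 7 endothelial genes summed to 57.9 and 73.8 CPM in Tet1-WT females and to 119 and 212 CPM in Tet1-KO females. Pecam1 was called higher there, and the sums overlapped in males. The higher sum was not shared by the list, whose median log2 difference in females was 0. Each Tet1-KO female library had 4 of the 7 genes at 0, beside 3 and 4 in Tet1-WT. The part of these lists in the values of the 9 genes was not tested.

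Whether the sexes already differed in their response at E12.5 was asked with libraries whose levels the choice did not compare. At E12.5 the effect of Tet1 on these genes had the same sign in females and males for each member tested except Adamts14, whose male value was 0. No member other than Dab2 passed the test of the Tet1 effect in either sex. The test of the difference between the sexes called 0% of 16279 genes and none of the 8 members tested, and none of these members had an unadjusted p under 0.05 (930 of all genes did; DESeq2 called 37 genes and no member). The SE of this difference lay between 0.38 and 1.09 on the log2 scale for the members, with 2 libraries per group. The absence of calls therefore cannot tell whether the sexes responded alike at E12.5. Agbl2 did not pass the filter on low counts in the libraries of E10.5 and E12.5.

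**Figure D2:**
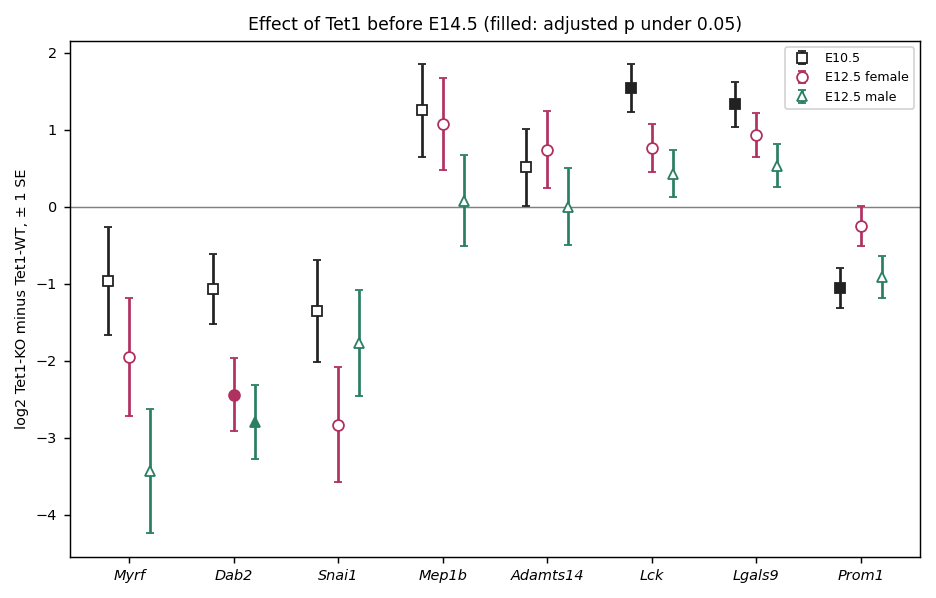
Fitted log2 difference Tet1-KO minus Tet1-WT with bars of 1 SE for the 8 members tested before E14.5, at E10.5 (squares), in E12.5 females (circles) and in E12.5 males (triangles), 2 libraries per group, filled where the adjusted p was under 0.05. Dab2 is filled in both sexes at E12.5 (-2.44 and -2.79), and Lck, Lgals9 and Prom1 at E10.5.

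Dab2 was the member called at E12.5. In females it fell from 45.7 and 64.5 CPM with Tet1-WT to 13.1 and 7.4 CPM with Tet1-KO (log2 -2.44, SE 0.47, adjusted p = 0.0245), and in males from 127 and 67.2 CPM to 20.5 and 8.94 CPM (log2 -2.79, SE 0.48, adjusted p = 0.0176), both in edgeR's test. The genotypes did not overlap in either sex. This was 1 call among 8 members tested in each sex, beside 2.08% of all genes in females and 1.78% in males. The difference of its effects, male minus female, was -0.35 (SE 0.64, adjusted p = 1), with values between -1.06 and 0.23 leaving out a library, against the opposite directions at E14.5. The call in females was lost without Tet1-WT library 2 (adjusted p = 0.126), Tet1-KO library a (0.0641) or Tet1-KO library b (0.214), and the call in males without Tet1-WT library 1 (0.162) or Tet1-KO library b (0.145).

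Myrf and Snai1 lay in the same direction as Dab2 at E12.5 without passing the test. In females Myrf was at 7.13 and 9.73 CPM with Tet1-WT against 2.03 and 2.47 CPM with Tet1-KO, and at 27.2 and 11.1 CPM against 1.68 and 2 CPM in males. No Tet1-KO library reached a Tet1-WT library, and the log2 differences were -1.95 (SE 0.77, adjusted p = 0.291) and -3.43 (SE 0.81, adjusted p = 0.0663) in edgeR's test. Snai1 was at 4.30 and 1.26 CPM against 0.373 and 0.423 CPM in females (log2 -2.83, SE 0.75) and at 6.29 and 4.76 CPM against 2.61 and 0.8 CPM in males (log2 -1.77, SE 0.69). Its adjusted p was 0.0968 in females and 0.270 in males.

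Mesenchyme genes were also lower in Tet1-KO at E12.5. The 12 mesenchyme genes summed in females to 1010 and 1420 CPM with Tet1-WT against 77.4 and 91.5 CPM with Tet1-KO, and to 2270 and 1420 CPM against 336 and 210 CPM in males, with none of the 12 at 0 in any of these libraries. Of the 12, 10 were called lower in Tet1-KO females and 11 in Tet1-KO males. Over all genes, 312 of the 339 calls in females and 276 of the 290 in males were lower in Tet1-KO. The part of mesenchyme RNA in the Dab2, Myrf and Snai1 values was not tested.

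**Figure D3:**
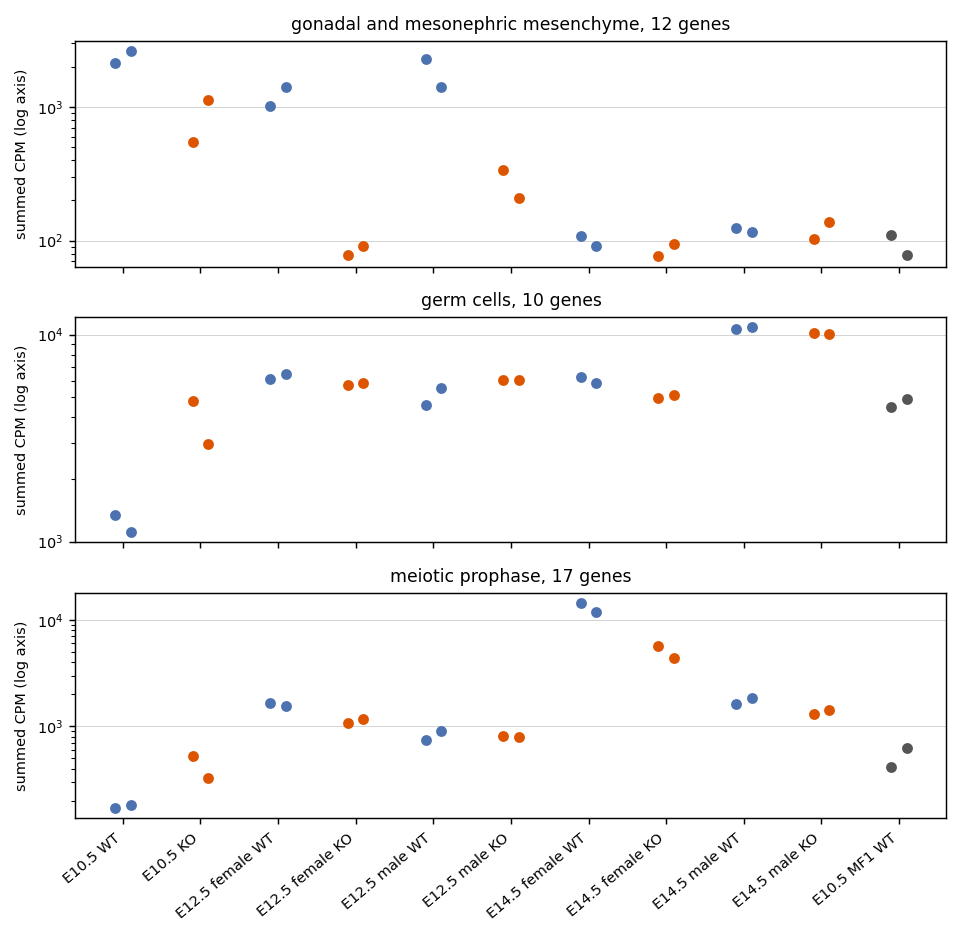
Summed CPM of 3 marker lists in each of the 22 libraries on log axes, 2 points per group, Tet1-WT in blue, libraries labelled Tet1-KO in orange and the MF1 cross in grey. The mesenchyme sum separates the genotypes at E10.5 and E12.5 and lies between 76.4 and 138 CPM in the 8 libraries at E14.5, and the meiotic sum peaks in E14.5 Tet1-WT females.

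The other members differed by smaller amounts at E12.5, and none passed the test. Lck was at 20.9 and 24.3 CPM against 31.4 and 47.6 CPM in Tet1-KO females (log2 0.76, SE 0.31) and at 22.9 and 20.6 CPM against 29.5 and 31.6 CPM in males (log2 0.43, SE 0.31). Lgals9 was at 22.2 and 16.7 CPM against 34.6 and 41.4 CPM in females (log2 0.93, SE 0.28) and at 22.9 and 27.3 CPM against 38.2 and 37.3 CPM in males (log2 0.53, SE 0.28). Both had higher levels in each Tet1-KO library than in either Tet1-WT library of the same sex, with adjusted p between 0.151 and 0.573 by edgeR. Mep1b gave log2 1.07 (SE 0.60) in females and 0.08 (SE 0.59) in males, and Adamts14 gave 0.74 (SE 0.50) and 0 (SE 0.50). Prom1 gave -0.25 (SE 0.26) in females and -0.91 (SE 0.27) in males. The medians over the 8 members were 0.24 in females and -0.46 in males, beside -0.05 over all genes in each sex.

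In the test of the difference at E12.5 the largest values were -1.48 (SE 1.09) for Myrf and 1.06 (SE 0.99) for Snai1. Mep1b followed with -0.99 (SE 0.84), Adamts14 with -0.74 (SE 0.70), Prom1 with -0.66 (SE 0.38), Lgals9 with -0.40 (SE 0.40) and Lck with -0.33 (SE 0.44). Adjusted p values lay between 0.916 and 1 by edgeR. The stages themselves were not compared in a test, because the E14.5 values had chosen the genes.

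At E10.5, 3 of the 8 members tested were called between the libraries labelled Tet1-KO and Tet1-WT, beside 8.03% of all genes. Lck rose from 37.5 and 29.6 CPM in Tet1-WT to 131 and 67.4 CPM (log2 1.54, SE 0.31, adjusted p = 0.0177). Lgals9 rose from 9.21 and 7.29 CPM to 25 and 17 CPM (log2 1.33, SE 0.29, adjusted p = 0.0222). Prom1 fell from 107 and 155 CPM to 57.3 and 69.0 CPM (log2 -1.06, SE 0.26, adjusted p = 0.0355; all by edgeR's quasi-likelihood test). In none of the 3 did the groups overlap. Among the others Myrf was at 89.0 and 46.0 CPM against 8.98 and 60.5 CPM, Dab2 at 90.5 and 101 CPM against 34.1 and 57.6 CPM, and Snai1 at 18.4 and 23.1 CPM against 8.64 and 7.78 CPM. Myrf overlapped between the groups and Dab2 and Snai1 did not. Mep1b gave a log2 difference of 1.25 (SE 0.60) and Adamts14 of 0.51 (SE 0.50), the latter with overlapping groups.

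The E10.5 groups also differed in their make-up. The 10 germ cell markers summed to 1340 and 1110 CPM under the label Tet1-WT and to 4770 and 2960 CPM under the label Tet1-KO, with 7 of the 10 called higher. The mesenchyme genes summed to 2120 and 2620 CPM against 545 and 1130 CPM, and 5 of the 12 were called lower. The part of either list in the values of Lck, Lgals9 and Prom1 was not tested. All 3 calls were lost without Tet1-WT library 2 (adjusted p 0.115, 0.132 and 0.232 in that order) or without Tet1-KO library 1 (0.0557, 0.0594 and 0.097). Without Tet1-KO library 2, whose Tet1 level was within the Tet1-WT range, 4 members were called, Myrf being the addition (log2 -2.91, adjusted p = 0.011). With the E14.5 libraries in the fit Lck and Lgals9 were not called (adjusted p = 0.103 each).

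Between the sexes at E12.5 Prom1 was the member called. With Tet1-WT it was lower in males, at 24 and 16.5 CPM against 55.6 and 56.5 CPM in females (log2 -1.46, SE 0.27, adjusted p = 0.0494). With Tet1-KO the males held 13.4 and 9.07 CPM against 46.4 and 50 CPM in females (log2 -2.12, SE 0.28, adjusted p = 0.0101; edgeR). The sexes did not overlap in either genotype. This was 1 of 8 members in each genotype, beside 0.442% of all genes in Tet1-WT and 0.461% in Tet1-KO. The call in Tet1-WT was lost without any 1 of its 4 libraries (adjusted p 0.0548 to 0.322) and with DESeq2's size factors (0.0545). The call in Tet1-KO was lost without female library a (0.068), female library b (0.070) or male library b (0.073). The E14.5 values of Prom1 had the same order, with both male groups below both female groups.

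From E10.5 to E12.5 in Tet1-WT, 4 of 8 members were called in females and 2 of 8 in males, beside 13% and 8.46% of all genes. Prom1 fell in both (log2 -1.24, SE 0.27, adjusted p = 0.0124 in females, and -2.70, SE 0.28, adjusted p = 0.000358 in males; edgeR), and Lgals9 rose in both (1.21, SE 0.29, adjusted p = 0.0192, and 1.58, SE 0.29, adjusted p = 0.00784; edgeR). Myrf and Snai1 fell in females (-3.03 and -2.92, SE 0.76 and 0.70, adjusted p = 0.0239 and 0.0204), and their male values of -1.84 and -1.92 did not pass (0.146 and 0.108). Both sexes were compared with the same E10.5 libraries, in which the sexes were not separated. The germ cell sum was 1340 and 1110 CPM at E10.5, 6110 and 6460 CPM in E12.5 females and 4570 and 5510 CPM in E12.5 males, and the mesenchyme sum was 2120 and 2620, 1010 and 1420, and 2270 and 1420 CPM, and the part of either in these changes was not tested. Each female call rested on most of the 4 libraries, since 1 call was left whichever library was omitted: Prom1 without E10.5 library 1, Myrf without E10.5 library 2, Snai1 without E12.5 library 1 and Lgals9 without E12.5 library 2. The adjusted p of the lost female calls lay between 0.0519 and 0.129. In males Prom1 was called in each case, and Lgals9 was not without E10.5 library 2 (adjusted p = 0.0697) or E12.5 library 2 (0.0769). With the E14.5 libraries in the fit the Lgals9 call was lost in females (0.115) and in males (0.0554).

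**Figure D4:**
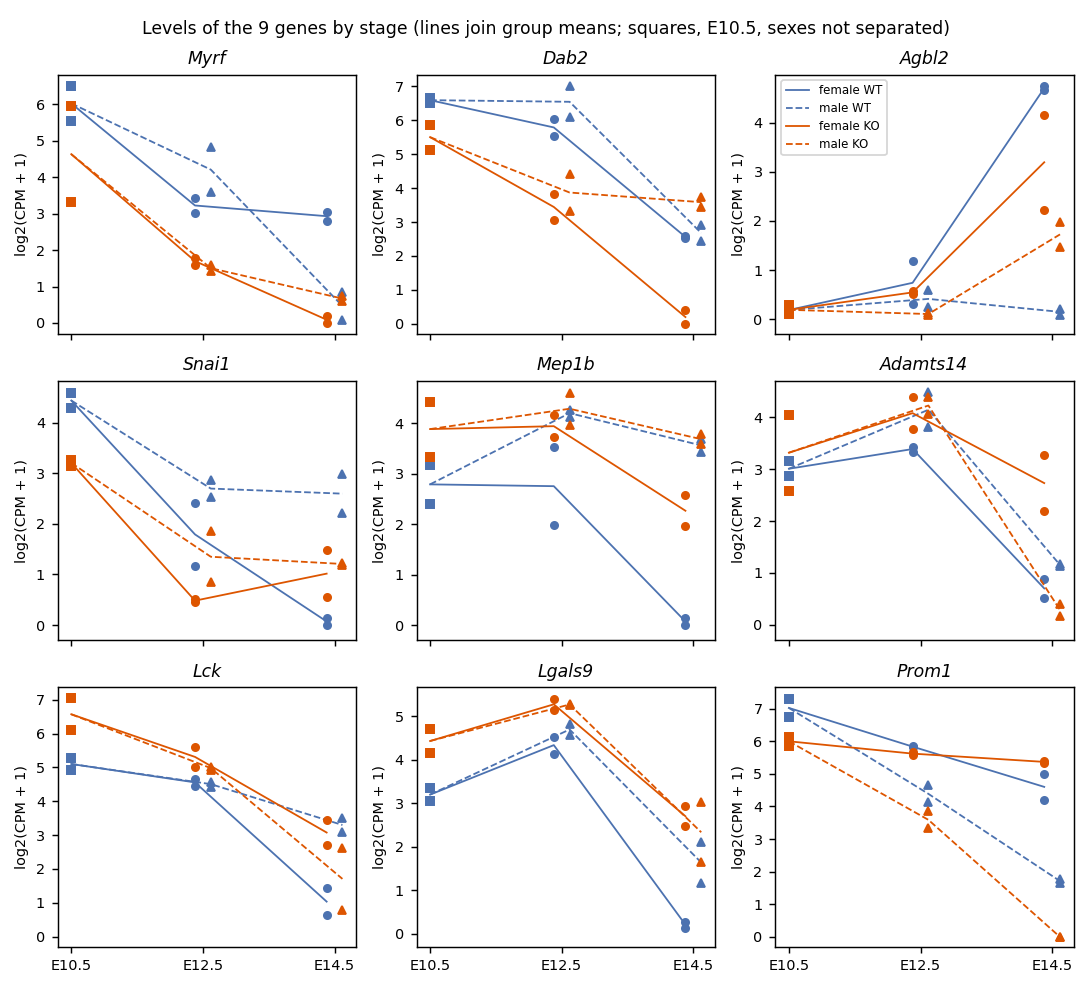
Log2(CPM + 1) of each of the 9 genes at E10.5, E12.5 and E14.5, with 1 symbol per library (squares at E10.5, circles for females, triangles for males), lines through group means, Tet1-WT in blue and Tet1-KO in orange. At E14.5 Mep1b, Lck and Lgals9 lie lowest among the female groups in Tet1-WT (0.053, 1.12 and 0.156 CPM on average), and Agbl2 is highest in E14.5 females.

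From E12.5 to E14.5 the levels are given without a test. In Tet1-WT females Dab2, Snai1, Mep1b, Adamts14, Lck, Lgals9 and Prom1 had lower levels at E14.5 than at E12.5. Myrf overlapped, and Agbl2 was higher (log2 5.04, SE 0.98). Among the lower genes, for those with more than 3 reads in each group, the stage difference was largest for Lgals9 (log2 -7.04, SE 0.74), whose mean was 19.4 CPM at E12.5 and 0.156 CPM at E14.5, followed by Lck (-4.46, SE 0.71) and Adamts14 (-3.81, SE 0.67). In Tet1-KO females the same 3 genes had differences of -2.76 (SE 0.52), -2.34 (SE 0.60) and -1.41 (SE 0.58). Mep1b had means of 6.74 and 0.053 CPM at the 2 stages in Tet1-WT females, and its Tet1-KO libraries were at 16.8 and 12.2 CPM at E12.5 and at 4.95 and 2.88 CPM at E14.5. The higher E14.5 levels of these 4 genes in Tet1-KO females were thus still below their own E12.5 levels. The mesenchyme sum in Tet1-WT females was 1010 and 1420 CPM at E12.5 and 109 and 91.2 CPM at E14.5. In Tet1-KO females it was 77.4 and 91.5 CPM and then 76.4 and 94.9 CPM. Its part in the female stage differences was not tested.

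In males of both genotypes Lgals9, Lck, Adamts14 and Mep1b were also lower at E14.5 than at E12.5, by unlike amounts. Lgals9 had differences of -3.48 (SE 0.54) in Tet1-WT and -3.02 (SE 0.53) in Tet1-KO. Lck had -1.28 (SE 0.58) and -3.38 (SE 0.64) in that order. Mep1b lay between 9.83 and 12.7 CPM at E14.5 in both genotypes after 14.6 to 23.3 CPM at E12.5. Adamts14 had means of 17.2 and then 1.22 CPM in Tet1-WT and of 17.9 and then 0.222 CPM in Tet1-KO, differences of -3.81 (SE 0.65) and -6.30 (SE 0.77). Dab2 had means of 97.1 and then 5.46 CPM in Tet1-WT males, and of 14.7 and then 11.1 CPM in Tet1-KO males, whose stages overlapped. Tet1-WT males were thus above Tet1-KO males in Dab2 at E12.5 and below them at E14.5. The mesenchyme sum in Tet1-WT males was 2270 and 1420 CPM at E12.5 and 125 and 116 CPM at E14.5. In Tet1-KO males it was 336 and 210 CPM and then 102 and 138 CPM. The part of mesenchyme RNA in these stage differences was not tested.

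Each gene had its own order of group means over the 10 groups of the Tet1 cross. Lck ran from 99.0 CPM at E10.5 in the libraries labelled Tet1-KO to 1.12 CPM in E14.5 Tet1-WT females, Lgals9 from 38.0 CPM in E12.5 Tet1-KO females to 0.156 CPM in E14.5 Tet1-WT females, and Adamts14 from 17.9 CPM in E12.5 Tet1-KO males to 0.222 CPM in E14.5 Tet1-KO males. The 5 highest groups of Adamts14 each overlapped with the next until E12.5 Tet1-WT females (9.48 CPM), which stood clear of E10.5 Tet1-WT (7.09 CPM). Prom1 had the clearest order, from 131 CPM at E10.5 in Tet1-WT to 0, in which E14.5 Tet1-WT females and E12.5 Tet1-WT males were the overlapping neighbours. Agbl2 had a group mean above 5 CPM only in E14.5 females, at 25.1 and 10.3 CPM, and its 7 lowest groups overlapped with their neighbours at means of 0.749 CPM and less. Myrf and Snai1 peaked at E10.5 in Tet1-WT, at 67.5 and 20.7 CPM, and Dab2 at 97.1 and 95.5 CPM in E12.5 Tet1-WT males and E10.5 Tet1-WT, which overlapped.

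Wild-type E10.5 PGCs of the MF1 cross were scaled in their own table, so their levels are set beside those of the Tet1 cross without a test. Dab2 was at 9.97 and 6.82 CPM there, Snai1 at 2.23 and 0.0755 CPM and Myrf at 5.37 and 0.438 CPM, each below both Tet1-WT libraries of the same stage. Lck was at 78.8 and 121 CPM, Lgals9 at 85.3 and 47.6 CPM, Mep1b at 18.8 and 33.3 CPM and Adamts14 at 18.6 and 20.1 CPM, each above both Tet1-WT libraries. Agbl2 had 0 and 5 reads, and Prom1, at 72.8 and 19.6 CPM, also lay below both Tet1-WT libraries. The mesenchyme sum in the MF1 libraries was 110 and 77.6 CPM and the germ cell sum 4470 and 4880 CPM, so the crosses differed in these markers as well. Their libraries also differed in RNA kit, depth and range of sorted cell numbers. The part of any of these in the values was not tested.

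**Figure D5:**
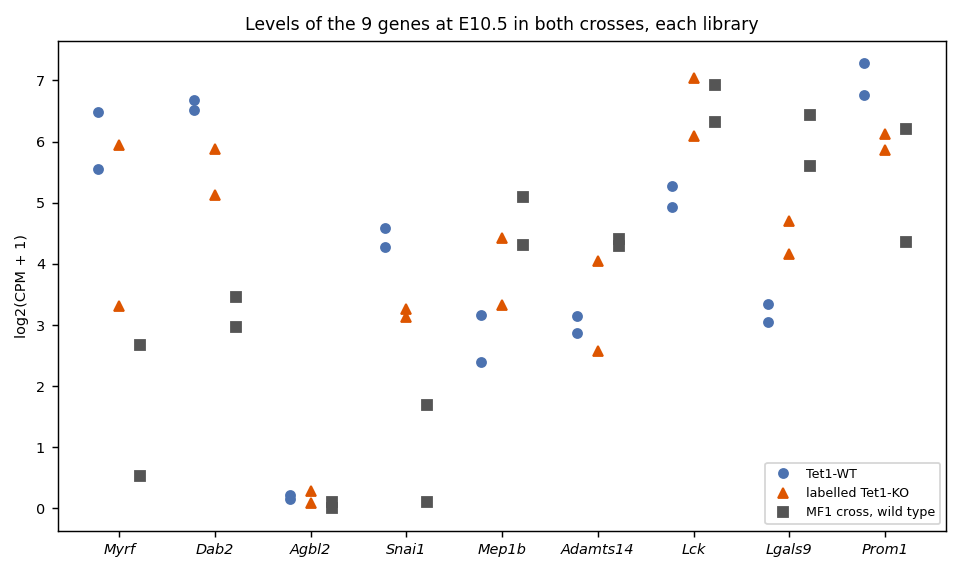
Log2(CPM + 1) of the 9 genes at E10.5, with 1 symbol per library for Tet1-WT (blue circles), libraries labelled Tet1-KO (orange triangles) and wild type of the MF1 cross (grey squares), 2 libraries each. MF1 libraries lie below Tet1-WT for Myrf, Dab2, Snai1 and Prom1 and above for Mep1b, Adamts14, Lck and Lgals9.

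Genes with the most similar course were found by Pearson's r of log2(CPM + 1) over the 20 libraries of the Tet1 cross, which share their libraries and include the 8 that chose the members. Nearest to Dab2 were Nid1 (r = 0.954), Igfbp5 (0.944) and Gpx8 (0.944), and nearest to Myrf Tpm2 (0.950), Col4a1 (0.945) and Samd4 (0.940). Agbl2 was followed most closely by Cited1 (0.956), Ifnar1 (0.952) and Figla (0.944). For Mep1b the leading genes were Six4 (0.945), Cby1 and Ppid (0.927 each), and for Snai1 Ak3 and Ddah2 (0.951 each) and Tle3 (0.927). Adamts14 ran with Jak3 (0.920), Rgcc (0.905) and Plcd1 (0.899), Lck with Slc25a5 (0.918), Apoe (0.915) and Hnrnpab (0.914), and Lgals9 with Adam19 (0.930), Rest (0.928) and Ak1 (0.922). Prom1 was nearest to Gstp1 (0.945), Id2 (0.944) and Mdk (0.937). None of the 27 genes was nearest to more than 1 member.

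Relatives and partners of the members were counted in 5 lists. Over all genes, 2.08% were called between Tet1-KO and Tet1-WT in E12.5 females, 1.78% in E12.5 males and 8.03% at E10.5. At E14.5 the shares were 6.65% in females and 0.102% in males. Of the 12 mesenchyme genes, 10 were called lower in E12.5 Tet1-KO females, 11 in E12.5 males and 5 at E10.5. The part of mesenchyme RNA in the values of the 5 lists was not tested. Tmem98, whose protein binds MYRF, was called lower at E12.5 in Tet1-KO females (log2 -2.59, adjusted p = 0.00925) and males (-2.06, adjusted p = 0.0306; edgeR) and at E10.5 (-1.65, adjusted p = 0.0293), as 1 of 8 tested relatives of Myrf, Agbl2, Prom1 and Dab2 each time. At E14.5 none of 10 was called in either sex. Of 8 tested Snail, ZEB and Twist factors and cadherins, Snai2 and Zeb2 were called lower in E12.5 Tet1-KO females (-2.49 and -3.69) and males (-2.78 and -3.4), and at E10.5 with Cdh2 (-1.97, -2.15 and -1.46), where Cdh1 was higher (1.93). In E14.5 Tet1-KO females Cdh1, encoding E-cadherin, and Vim, encoding vimentin, were called higher (2.65 and 2.37), and no member of that list was called in E14.5 males.

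Of 13 tested astacin and ADAMTS proteases, Bmp1, a procollagen C-proteinase, and Adamts1 were called lower in E12.5 Tet1-KO females (-3.46 and -3.65) and none in E12.5 males. Bmp1 was also lower at E10.5 (-2.29), and none was called at E14.5. Mep1a, which encodes the other meprin subunit, had at most 0.471 CPM in a library of the Tet1 cross. Among 11 tested SRC-family kinases and partners of Lck, Csk, encoding the kinase that restrains the family, was called higher in E14.5 Tet1-KO females (1.07, adjusted p = 0.0226, edgeR) and none was called in the other sex or at E12.5. Among the galectins and the gene for the receptor Tim3, Lgals4 was called lower at E10.5, with 1.73 to 4.58 CPM in Tet1-WT and no read in the libraries labelled Tet1-KO, and no gene of this list was called at E12.5 (6 tested) or E14.5 (7 tested). In the test of the difference between the sexes at E14.5 no gene of the 5 lists was called.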

How the data were processed

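RNA-seq of sorted PGCs was used as 2 deposited tables of raw counts per Ensembl gene, with 20 libraries of the Tet1 cross and 2 of the MF1 cross. Per the submitters' processing notes the authors trimmed reads with Trimmomatic, aligned them to mm9 with TopHat2 2.0.2 and Bowtie 0.12.8 and made the counts with HTSeq 0.5.3p9. Whether counting used strand, and how reads with several matches were handled, is not given in the sources used here, so reads of overlapping or antisense genes cannot be told apart. Symbols were matched for 32919 identifiers. A marker list of other cells is not reported here.

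The 9 genes, the marker lists and the lists of relatives were chosen with earlier results of these data known. Genes were tested with edgeR 4.0.16 (R 4.3.3; quasi-likelihood, robust, TMM scaling; filterByExpr with a minimum count of 10 and a minimum total of 15; prior count 0.125), and p-values were adjusted by the Benjamini-Hochberg method over all genes tested. Tests used the 12 libraries of E10.5 and E12.5 Tet1-cross groups (16279 genes, 6 residual degrees of freedom), and E14.5 values came from a fit of all 20 (17567 genes, 10 residual degrees of freedom). Ratios that rest on 1 to 3 counts have exact 95% counting intervals, and a count of 0 was given a limit of 3 counts per library. The named genes were the members, Tet1, the 3 genes most correlated with each member, called genes of each list and, of the other genes called in the E14.5 difference, the 10 with the smallest p. Alternatives were DESeq2 1.42.0, its size factors, no filter, all 20 libraries, a replicate block and leaving out each library, and 2 further settings were added after seeing the data. The tests were tried on simulated data, and figures were drawn with matplotlib 3.10.9. Columns of Tet1-KO libraries at E12.5 and E14.5 carry no replicate number and are called a and b. With 2 libraries against 2, an exact permutation test of a single value cannot go below 0.333, so none was used. Libraries of a group differed beyond counting noise, and none was counted as a copy of another.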

Additional observations from a re-analysis of the deposited data

Results flagged for a closer look

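Beside the 9 members, 10 genes with the smallest p were picked out because edgeR's test of the difference itself, the Tet1 effect in E14.5 males minus that in E14.5 females, gave an adjusted p between 0.00156 and 0.00863. Each is given with its log2 difference, and means are over 2 libraries.

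Several of the 10 were abundant in Tet1-WT females and lower in Tet1-KO females. Hspa5, an endoplasmic reticulum chaperone, had a difference of 1.40, with means of 2140 CPM in Tet1-WT females, 1020 in Tet1-KO females, 1070 in Tet1-WT males and 1340 in Tet1-KO males. Pdia4, a disulfide isomerase of the same compartment, had a difference of 1.43, with 806, 454, 388 and 588 CPM in that order. Haus8, a subunit of the microtubule-binding augmin complex, had 1.71 (372, 147, 68 and 87.7 CPM). Iqcb1, a ciliary protein gene, had 1.76 (1710, 698, 178 and 246 CPM), Pttg1ip had 1.75 (789, 394, 122 and 206 CPM) and Pdlim5 had 2.20 (156, 57.4, 12.6 and 21.4 CPM).

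The other 4 were higher in Tet1-KO females than in Tet1-WT females. Cox8a, a subunit of cytochrome oxidase, had a difference of -2.10 (33.9, 111, 123 and 95 CPM), and Eif4ebp1, a translation repressor, had -2.00 (22.4, 68, 118 and 90.1 CPM). Slc25a5, the mitochondrial ADP/ATP carrier that also lay nearest to Lck over the 20 libraries, had -1.59 (228, 732, 527 and 562 CPM). Zbed5 had -2.88 (3.38, 14, 132 and 77.1 CPM).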

How the results depend on the processing

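Counts here are members called, followed by all genes called. In E12.5 females the main test gave 1 and 339: without a filter 3 and 1063, with DESeq2 3 and 1003, with the 8 libraries at E12.5 alone 2 and 637, and leaving out a library 0 to 1 and 80 to 615. In E12.5 males 1 and 290 became 2 and 1050 without a filter, 3 and 1010 with DESeq2, 2 and 638 with the E12.5 libraries alone and 186 genes with all 20 libraries, and 0 to 1 and 0 to 246 leaving out a library. The members added were Myrf and Snai1 in females without a filter (adjusted p = 0.000325 and 0.0131), Snai1 and Lgals9 there with DESeq2 (0.00741 and 0.0379), Lgals9 with the E12.5 libraries alone (0.0478), and in males Myrf under all 3 settings (1.44e-11, 0.000114 and 0.00925) and Prom1 with DESeq2 (0.0442). For the difference between the sexes no member was called, with 111 genes without a filter, 37 with DESeq2 and 0 to 1 leaving out a library.

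At E10.5, 3 and 1308 became 2609 genes without a filter, 2763 with DESeq2 and 1 member with all 20 libraries, with Dab2 added without a filter (adjusted p = 0.00412), and ranged over 0 to 4 and 300 to 2343 leaving out a library. Between the sexes in E12.5 Tet1-WT, 1 and 72 became 0 members with DESeq2's size factors, 558 genes without a filter, 682 with DESeq2 and 238 with the E12.5 libraries alone, and 0 and 15 to 245 leaving out a library. In Tet1-KO, 1 and 75 became 502 genes without a filter, 444 with DESeq2 and 209 with the E12.5 libraries alone, and 0 to 1 and 7 to 42 leaving out a library. From E10.5 to E12.5, 4 and 2112 in females became 3362 genes with DESeq2 and 1 and 934 to 1657 leaving out a library. In males 2 and 1377 became 4 and 2280 without a filter, 4 and 2517 with DESeq2 and 1 with all 20 libraries, and 1 to 2 and 301 to 746 leaving out a library. At E14.5 the genes called were 1168 in females (1857 without a filter, 2176 with DESeq2, 70 to 1345 leaving out a library), 18 in males (468, 368, 0 to 44, and 0 with E14.5 libraries alone) and 251 for the difference (862, 1093, 15 to 329, and 44 with E14.5 libraries alone).

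The labels do not say what the replicate numbers of E10.5 and of E12.5 Tet1-WT libraries share. Deviations from group means of equally numbered libraries correlated between -0.03 and 0.05 over 17567 genes. Such values cannot tell whether equally numbered libraries were collected together. With the replicate number as a block in these 8 libraries the calls were 0 and 99 at E10.5, 0 and 9 between the sexes in Tet1-WT, 1 and 838 from E10.5 to E12.5 in females and 1 and 433 in males. Without the term the same 8 libraries gave 1 and 419, 0 and 8, 2 and 1128, and 1 and 612. No paired analysis was possible because columns of Tet1-KO libraries carry no number at E12.5 and E14.5, for the comparisons that need them. The E12.5-only and the numbered-library fits without the term were chosen after seeing the data.

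Adamts14 in E12.5 males, at 0, turned sign with DESeq2's size factors and DESeq2 (0 each), without a filter, with all 20 libraries and with the E12.5 libraries alone (0.06 each) and leaving out a library (up to 0.48). Leaving out a library, the sign also turned for Mep1b in E12.5 males (-0.24 to 0.37), Adamts14 at E10.5 (-0.51 to 1.14), and in the E12.5 difference Snai1 (-0.03 to 1.71), Dab2 (-1.06 to 0.23) and Lck (-0.59 to 0.01). None of these values was called. Of the members' tested values, leaving out a library kept direction and call in 149, ended the call in 32, added it in 1 and turned the sign in 10. The other settings did so in 177, 19, 10 and 5. Of the E14.5 values, 20 moved by over 1 SE and 76 did not leaving out a library, and none of 76 moved under the other settings. Group means moved at most 1.09-fold between scalings. Causes of these shifts were not tested, and leaving out a library also lowered the number of libraries. Low counts limit the values of Agbl2 before E14.5 and of the E14.5 groups with 0 to 7 reads. Where counting intervals were given for such groups, they were wide. Agbl2 had 229 reads in E14.5 Tet1-WT female library 2, with 9616436 total counts. It had 0 and 5 reads in the MF1 libraries, with 59415040 and 66924911 total counts. The part of depth in the low counts was not tested.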
